A study of Mus musculus with 50 samples.

Results

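The genes of mitochondrial fusion and fission are described here in ageing mouse muscle. They were chosen by symbol alone, as the rows Mfn1, Mfn2, Opa1, Oma1, Dnm1l, Fis1, Mff, Mief1 and Mief2, which are 9 of the 23880 genes in the deposited tables. All 9 were found, and all 9 passed the filter on low counts. RNA came from the gastrocnemius, a calf muscle, of 50 male wild type mice of the inbred strain C57BL/6JRj, in 6 age groups. The groups of 8, 18, 22 and 24 months held 8 mice each, and those of 26 and 28 months held 9. Each library came from a different animal, all mice were kept in single cages on the purified AIN93M diet, and the labels name no other treatment. Per the study's methods, the diet began on one schedule in mice of 8 and 18 months and on another in mice of 22 to 28 months, so age and diet schedule cannot be told apart where mice of 22 to 28 months are compared with those of 8 or 18 months. Mice of 22 and 28 months shared a schedule that began at one age, so the older ones had been on the diet for longer, and age and time on the diet cannot be told apart between them either. Overtly ill mice were left out of the study, so no group holds overtly ill animals.

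Mitochondria in muscle form a network that is shaped by joining and division. On the outer membrane the GTPases mitofusin 1 and mitofusin 2 (Mfn1, Mfn2) tether and fuse neighbouring organelles, and Opa1, another GTPase, fuses the inner membrane and keeps the cristae tight. Oma1 is a stress-activated protease that cleaves Opa1 and so limits inner membrane fusion. Division is driven by Drp1, the product of Dnm1l, a cytosolic GTPase that constricts the organelle after it is recruited by receptors on the outer membrane, namely Mff, Fis1, and the paired adaptors Mief1 (MiD51) and Mief2 (MiD49). Much of this machinery is also controlled after transcription, by cleavage of Opa1 and phosphorylation of Drp1, which RNA levels do not show.

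The 9 genes lie on 7 chromosomes of GRCm38, with Mfn2 (chr4:147873599-147904704, minus strand) and Oma1 (chr4:103313812-103371868, plus strand) on the same one and Opa1 (chr16:29579334-29654884, plus strand) and Dnm1l (chr16:16312230-16358959, minus strand) on another. Mfn1 lies at chr3:32529465-32579239, Mff at chr1:82724890-82752394, Fis1 at chr5:136953275-136966234, Mief1 at chr15:80234018-80253371 and Mief2 at chr11:60728398-60732951, all on the plus strand in GENCODE vM21. None had a coding gene on the opposite strand. Mief1 alone shared its strand with another coding gene model, AC140267.1, which lies inside it and was not analysed here, so the values of Mief1 are uncertain as far as reads of that stretch were counted with it. The promoter windows of 3 genes are shown, because Fis1 and Mief1 were the members called in both comparisons of 28 months described below, in opposite directions, and Mief2 is the paralog of Mief1. Each runs from 250 bases before to 50 bases after a RefSeq transcription start (GRCm38.p6), 5′ to 3′ on the gene's strand, with motif matches in capitals. The windows are chr5:136953025-136953324 for Fis1, chr15:80233830-80234129 for Mief1 and chr11:60728148-60728447 for Mief2, all on the plus strand.
Fis1: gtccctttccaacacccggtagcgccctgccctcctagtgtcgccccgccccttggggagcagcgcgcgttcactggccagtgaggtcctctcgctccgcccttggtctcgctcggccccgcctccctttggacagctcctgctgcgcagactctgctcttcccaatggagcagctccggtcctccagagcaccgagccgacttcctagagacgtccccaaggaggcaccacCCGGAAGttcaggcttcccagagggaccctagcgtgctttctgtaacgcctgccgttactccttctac
Mief1: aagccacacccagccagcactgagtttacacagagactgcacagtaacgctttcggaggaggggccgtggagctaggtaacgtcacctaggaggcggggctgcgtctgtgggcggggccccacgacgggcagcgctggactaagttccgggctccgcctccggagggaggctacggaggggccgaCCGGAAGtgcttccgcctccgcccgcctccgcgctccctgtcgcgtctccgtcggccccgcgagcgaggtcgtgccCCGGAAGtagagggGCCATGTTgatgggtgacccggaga
Mief2: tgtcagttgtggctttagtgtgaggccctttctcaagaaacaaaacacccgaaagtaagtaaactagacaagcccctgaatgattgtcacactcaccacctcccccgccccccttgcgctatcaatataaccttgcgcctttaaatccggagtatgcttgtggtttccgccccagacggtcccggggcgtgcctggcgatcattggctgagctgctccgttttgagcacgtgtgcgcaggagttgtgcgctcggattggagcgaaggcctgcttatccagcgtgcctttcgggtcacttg
The letters of 4 motifs of regulators of mitochondrial genes were searched on both strands in the 14 windows that RefSeq gives for the 9 genes, some of which overlap each other. They were the ETS motif bound by GABPA (CCGGAAG, in 8.86% of all 32851 promoter windows), the NRF1 motif (GCATGCGC, 2.71%), the YY1 motif (AANATGGC, 6.05%) and the core site of ERR factors (AAGGTCA, 4.72%). The capitals mark 1 ETS match in Fis1 at position -18 from the start, and in Mief1 ETS matches at -65 and +11 with a YY1 match on the other strand at +25. A second window of Fis1, chr5:136961827-136962126, is not shown and held an ETS match at +19. The Mief2 window held none of the 4 motifs. Among the other members, Mfn1 had an ETS and a YY1 match, Dnm1l an ETS match, Mff a YY1 match, and Opa1 an NRF1 match that reads on both strands, while no window of Mfn2 or Oma1 had a match. The ERR core site was in 0 of the 14 windows. These are matches of letters in short windows and do not show binding.

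Total counts ranged from 13607229 to 21267375 per mouse, and raw counts of the members from 293 (lowest mouse of Oma1) to 17433 (highest mouse of Mfn2). All 6 muscle fibre markers were above the filter and summed to between 110082 and 137549 TPM (transcript counts per length, scaled to a fixed total per library) at 8 months and between 97354 and 151135 at 28 months. Of 4 T and B cell markers none passed the filter. Denervation markers summed to between 39.4 and 62.0 TPM at 8 months and between 79.8 and 504 TPM at 28 months, without overlap. Of these markers 5 of the 5 tested were higher at 28 months, as were 2 of the 6 muscle fibre markers. Of macrophage markers 3 of 6 were higher, and of fibroblast and adipocyte markers 3 of 5 and 3 of 4 were lower at 28 months. These counts use the test described below at a false discovery rate below 0.01. By it, 21.0% of all genes were higher and 18.7% lower. In whole muscle, fewer cells of a type and less RNA per cell cannot be told apart, and the part of these markers in the results below was not tested.

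In TPM, which allow genes to be compared, Mfn2 was the most abundant member, with a mean of 378 ± 46.6 (SD, n = 50). Mfn1 (235 ± 35.9 TPM) and the receptors Fis1 (186 ± 23.1 TPM) and Mff (163 ± 12.2 TPM) came next. Mief2 (85.6 ± 14.2 TPM), Opa1 (59.1 ± 8.61 TPM), Dnm1l (38.6 ± 4.87 TPM) and Oma1 (29.8 ± 3.66 TPM) followed, and Mief1 was the scarcest at 10.98 ± 1.45 TPM. The order was firm at several steps. Mfn2 exceeded Mfn1 in 50 of 50 mice, Mff exceeded Mief2 in 50 of 50, Opa1 exceeded Dnm1l in 50 of 50, and Oma1 exceeded Mief1 in 50 of 50. Neighbours that changed places in some mice were Mfn1 and Fis1 (Mfn1 higher in 44 of 50), Fis1 and Mff (Fis1 higher in 45), Mief2 and Opa1 (Mief2 higher in 47) and Dnm1l and Oma1 (Dnm1l higher in 48). The mitofusins thus stood above the division GTPase in transcript level, and the adaptor pair was the most unequal of the paralogs.

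**Figure D1:**
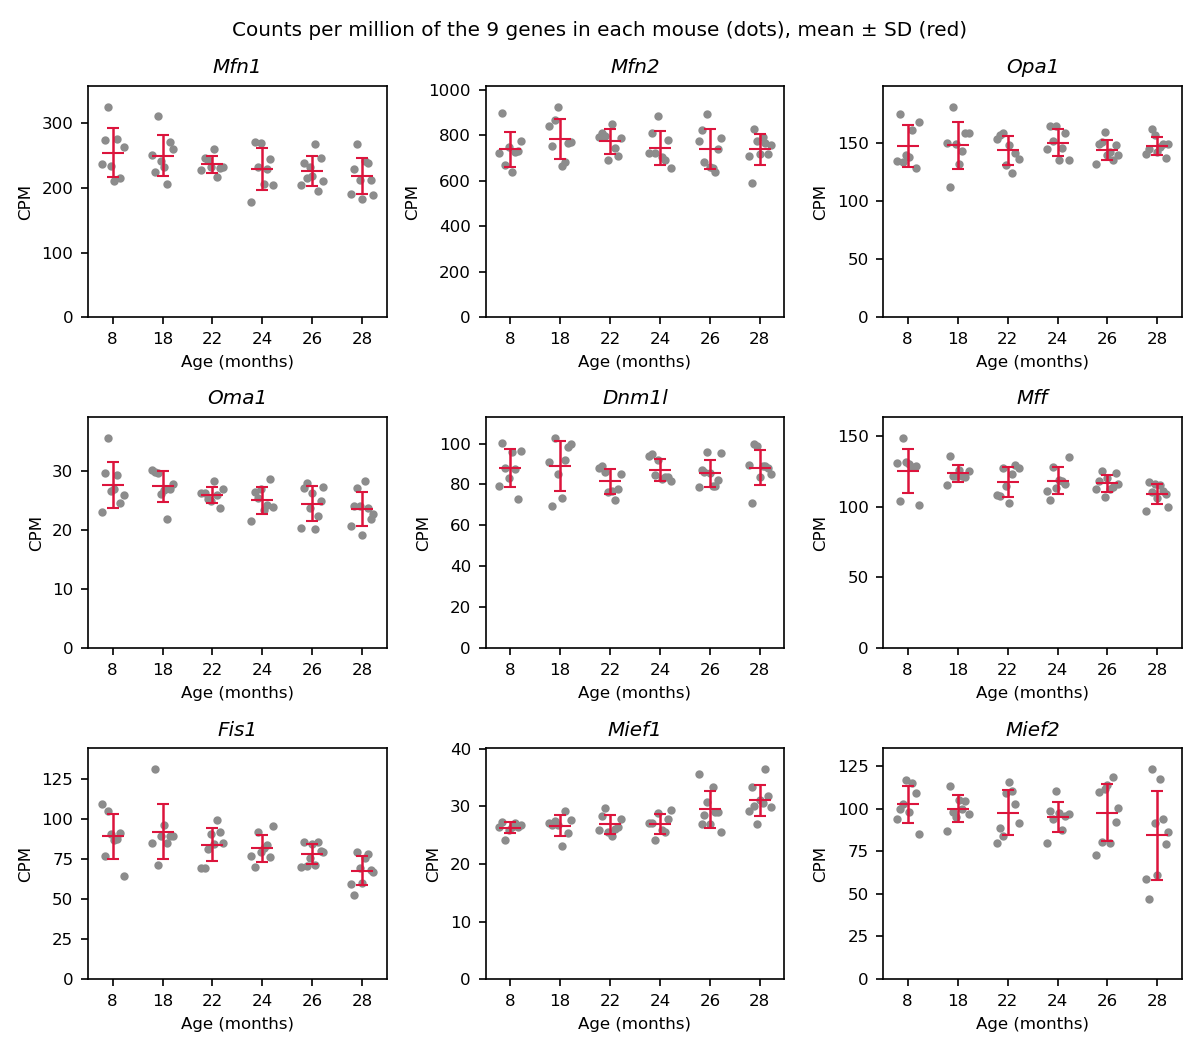
Counts scaled to library size (CPM, vertical axis, from 0) of each of the 9 genes in each mouse (grey dots) against age in months, with the mean and SD of each age in red. Fis1 runs from a mean of 89.1 CPM at 8 months to 67.7 CPM at 28 months, Mief1 from 26.3 to 31.1 CPM, and the 28-month dots of Mief2 are spread from 47.0 to 123 CPM.

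Between 28 and 8 months, the fission receptors Fis1 and Mff and the Opa1-cleaving protease Oma1 were lower and the adaptor Mief1 was higher at a false discovery rate (FDR, Benjamini-Hochberg over 12586 genes, edgeR quasi-likelihood test) below 0.01. Of the 4 GTPases, Mfn2, Opa1 and Dnm1l lay within 0.01 of no change on the log2 scale, and Mfn1 stood at -0.22 without passing (edgeR, FDR 0.028). With 4 of 9 members called, the group stood near the share among all genes tested, which was 39.6%, of which 18.7% were lower and 21.0% higher. The median log2 fold change of CPM (counts scaled to library size) was -0.20 over the 9 members and 0.01 over all genes. Before adjustment, 6 of 9 members and 58.2% of all genes had p below 0.05. The sizes were small, from a decrease of 24.0% to an increase of 18.0%.

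**Figure D2:**
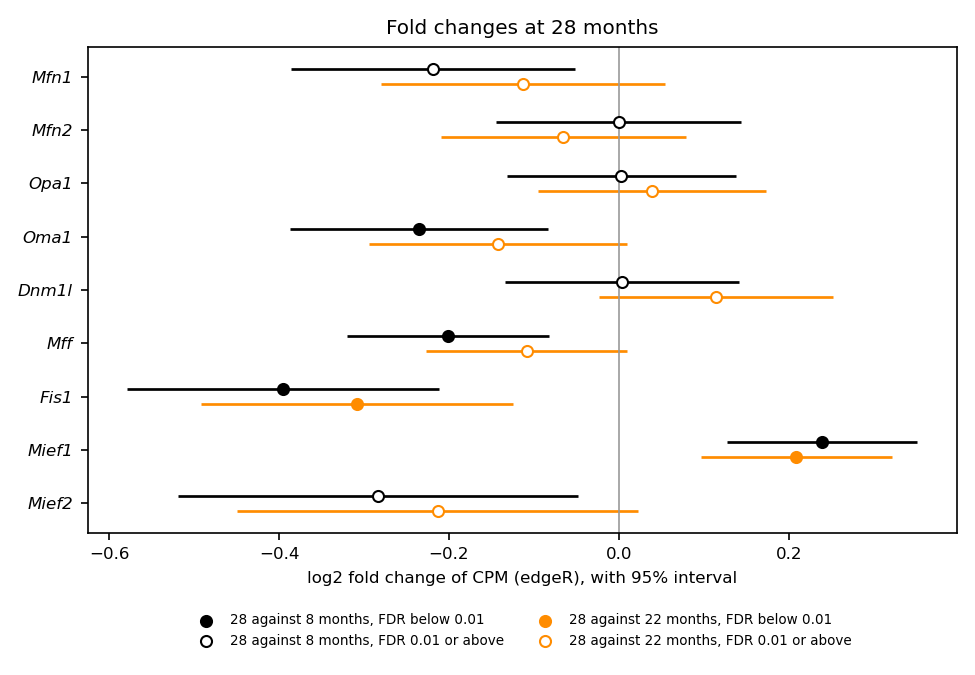
Log2 fold changes of CPM (horizontal axis) with 95% intervals for each gene, for 28 against 8 months (black) and 28 against 22 months (orange), with filled symbols where FDR was below 0.01. Fis1 lies left of 0 and Mief1 right of 0 in both comparisons, and Mfn2, Opa1 and Dnm1l sit at 0 in the first.

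Of the fusion genes, Mfn1 stood at 210, 250 and 325 CPM (lowest, median and highest of 8 mice) at 8 months and at 183, 213 and 268 CPM (9 mice) at 28 months. The groups overlapped, with 3 old mice below all young ones. Its log2 fold change of -0.22 (SE 0.09) had FDR 0.028 and did not pass. Over the 7 other settings it lay between -0.27 and -0.10 and passed in 1, upper-quartile factors (FDR 0.0077), and of the 17 mice left out in turn it passed without 1, replicate 3 of 28 months (-0.26, edgeR FDR 0.0089). Mfn2 stood at 641, 728 and 900 CPM at 8 months and at 592, 756 and 829 CPM at 28 months, and its difference of 0.00 had a 95% interval from -0.14 to 0.14 (edgeR, FDR 0.997). For Opa1 the values were 128, 139 and 175 CPM against 137, 146 and 162 CPM. Its difference was also 0.00, with an interval from -0.13 to 0.14 (edgeR, FDR 0.974). Over the other settings the difference lay between -0.05 and 0.10 for Mfn2 and between -0.05 and 0.13 for Opa1. The 95% intervals leave room for changes of up to about 0.14 on the log2 scale in either direction. The spread of Opa1 between mice was narrower in the old group, with a coefficient of variation of 5.32% against 12.2%, and this contrast of spreads was not tested.

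Oma1 stood at 23.1, 26.7 and 35.6 CPM at 8 months and at 19.2, 23.7 and 28.3 CPM at 28 months. Of the old mice 8 of 9 were under the 8-month mean and 4 under all young mice, but the ranges overlapped widely. The decrease was 15.0% (log2 fold change -0.23, SE 0.08, edgeR FDR 0.0098), just past the threshold. The call held in 2 of 7 other settings. It was lost on leaving out any of 12 of the 17 mice, with the highest FDR, 0.050, without replicate 3 of 8 months, whose 35.6 CPM was the highest of its group. On log2(TPM + 1), limma gave -0.14 with FDR 0.157.

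Dnm1l, which encodes the GTPase that does the constricting, stood at 73.1, 87.8 and 100 CPM at 8 months and at 70.7, 89.0 and 99.6 CPM at 28 months. The ranges were almost the same, and the log2 fold change of 0.00 had a 95% interval from -0.13 to 0.14 (edgeR, FDR 0.970).

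Among the receptors of Drp1, Fis1 changed most. At 8 months its values in replicates 1 to 8 were 109, 77.1, 105, 90.6, 87.2, 87.7, 91.1 and 64.6 CPM. At 28 months replicates 1 to 9 stood at 59.5, 52.7, 79.2, 69.4, 60.0, 75.9, 78.0, 68.3 and 66.7 CPM. All 9 old mice were under the 8-month mean, 3 of them under every young mouse, and the overlap came mainly from replicate 8 of 8 months. Fis1 fell by 24.0% (log2 fold change -0.40, SE 0.09, edgeR FDR 0.00048). The call held in 7 of 7 other settings (log2 fold change from -0.44 to -0.32) and on leaving out each of the 17 mice (-0.45 to -0.35).

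Mff, the main receptor that docks Drp1 on the outer membrane, stood at 101, 129 and 148 CPM at 8 months and at 96.9, 111 and 117 CPM at 28 months. All 9 old mice were under the 8-month mean, and 2 were under every young mouse. Mff fell by 13.0% (log2 fold change -0.20, SE 0.06, edgeR FDR 0.0048). The call held in 3 of 7 other settings. It was kept with 13 of 17 mice left out in turn and lost without replicate 3 (FDR 0.022) or 4 (0.0103) of 8 months or replicate 1 (0.0135) or 9 (0.0116) of 28 months. In TPM, Mff was less changed, at -0.12 with FDR 0.091 (limma on log2(TPM + 1)).

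Of the adaptor pair, Mief1 was called and Mief2 was not. Mief1 at 8 months stood at 26.4, 27.3, 24.2, 25.9, 26.4, 27.2, 26.4 and 26.7 CPM in replicates 1 to 8. In CPM this was the tightest group of any member, with a coefficient of variation of 3.62%. At 28 months replicates 1 to 9 stood at 29.2, 33.4, 30.1, 26.9, 31.1, 30.6, 36.5, 31.7 and 29.9 CPM. Only replicate 4 of the old mice lay within the young range, and the other 8 were above it. In TPM the groups were less apart, with 6 of 9 old mice above all young ones. There the coefficient of variation of Mief1 at 8 months was 11.7%, and that of Mff was smaller, at 7.83%. Mief1 was higher by 18.0% (log2 fold change 0.24, SE 0.06, edgeR FDR 0.00055), and was called in 7 of 7 other settings (0.18 to 0.33) and without each of the 17 mice (0.21 to 0.26).

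Mief2 at 8 months stood at 94.1, 99.5, 103, 117, 98.2, 115, 109 and 84.8 CPM in replicates 1 to 8. At 28 months replicates 1 to 9 stood at 58.8, 47.0, 123, 91.6, 61.0, 117, 94.1, 79.2 and 86.3 CPM. The old mice thus reached from below all young ones (4 of 9) to above them (2 of 9), with a coefficient of variation of 30.7% against 10.6%. The log2 fold change of -0.28 (SE 0.12) had FDR 0.043 and did not pass, except without replicate 3 of 28 months, the highest mouse, where it was -0.37 with FDR 0.0066. The 3 old mice lowest in Mief2, replicates 1, 2 and 5, were also the 3 lowest in Fis1. The same 3 had the highest summed denervation markers, at 473, 504 and 307 TPM against 79.8 to 170 TPM in the other 6, and the part of these markers in the spread was not tested. Among the tested markers Gadd45a had the highest mean at 28 months, 96.8 ± 76.8 CPM, followed by Chrna1 at 42.2 ± 10.8 CPM. The sums were not split by gene.

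The intermediate ages were compared with 8 months and each with the age before. No member was called between 18 and 8 months (0 of 9 also at unadjusted p below 0.05; 0.0715% of all genes called), 22 and 8 months (0 of 9; 0.0397%), 22 and 18 months (0 of 9; 0.00795%), 24 and 8 months (0 of 9; 0.612%) or 24 and 22 months (0 of 9; 0.0%). The same held for 26 against 8 months, where 18.4% of all genes were called. There 4 of 9 members and 44.7% of all genes had unadjusted p below 0.05. It also held for 26 against 24 months (1 of 9 and 17.5% at that p, 0.0% called) and 28 against 26 months (1 of 9 and 12.8%, 0.0% called). In the comparisons named first, the share of all genes at that p was 3.65% (18 against 8 months), 9.01% (22 against 8) and 4.15% (22 against 18). It was 19.2% for 24 against 8 months and 3.80% for 24 against 22 months. DESeq2 and limma on log2(TPM + 1) also called 0 of 9 in each of these 8 comparisons. At 26 months the 4 members were Fis1 (log2 fold change -0.19), Mief1 (0.16), Mfn1 (-0.17) and Oma1 (-0.18), with edgeR FDR of 0.108, 0.023, 0.109 and 0.067. A test of any difference among the 6 ages called Fis1 (edgeR, FDR 0.0015) and Mief1 (0.0011), 2 of 9 against 35.4% of all genes. Oma1 and Mff came next, with FDR 0.052 and 0.058.

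Means over age are given as a description, since no step between consecutive ages was called for any member. Fis1 stood at 89.1 ± 14.2 CPM at 8 months, 92.1 ± 17.4 at 18, 83.9 ± 10.4 at 22, 81.8 ± 8.46 at 24, 78.1 ± 6.44 at 26 and 67.7 ± 9.09 at 28 months (SD, n = 8 or 9). Mief1 stood at 26.3 ± 0.95, 26.7 ± 1.81, 26.9 ± 1.65 and 27.0 ± 1.74 CPM up to 24 months, then at 29.5 ± 3.24 and 31.1 ± 2.70 CPM. For both genes the neighbouring ages overlapped. Mfn1 and Oma1 had lower means in CPM at each age than at the one before, from 254 ± 38.0 to 219 ± 28.6 CPM and from 27.7 ± 3.88 to 23.5 ± 2.92 CPM. In TPM this order did not hold, since the means were slightly higher at 18 than at 8 months (Mfn1 248 against 245, Oma1 31.7 against 31.6) and at 28 than at 26 months (Mfn1 228 against 222, Oma1 28.6 against 28.0). Dnm1l (81.5 to 88.9 CPM), Opa1 (143 to 150 CPM) and Mfn2 (739 to 785 CPM) moved within narrow ranges of means.

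Between 28 and 22 months, on one diet schedule but with a longer time on the diet at 28 months, 2 of 9 members were called against 27.7% of all genes. Fis1 fell by 19.3% (log2 fold change -0.31, SE 0.09, edgeR FDR 0.0074) and Mief1 was higher by 15.6% (log2 fold change 0.21, SE 0.06, edgeR FDR 0.0034). Both calls were lost, at about the same size, in a fit on these 2 ages alone (edgeR, FDR 0.014 for Fis1 and 0.018 for Mief1). They were also lost without replicate 2 of 28 months (edgeR, FDR 0.018 and 0.012). Calls among all genes fell too, from 3485 of 12586 to 1859 of 12064 and 2521 of 12567 in these 2 settings. Oma1 (-0.14, FDR 0.133), Mff (-0.11, FDR 0.142), Mief2 (-0.21, FDR 0.147) and Mfn1 (-0.11, FDR 0.285) did not pass, nor did Mfn2 (-0.07), Opa1 (0.04) and Dnm1l (0.11).

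Ratios of TPM within a library do not depend on its scaling, and 4 were compared between 28 and 8 months with two-sided exact permutation tests adjusted over the 4. The ratio of Mief2 to Mief1 was 8.82 at 8 months and 5.96 at 28 months, a log2 difference of -0.57 (SE 0.18, n = 8 and 9, exact permutation p = 0.0053, adjusted p = 0.021), with 6 of 9 old mice below all young ones. The ratio of Opa1 to Oma1, of the fusion GTPase to its protease, was 1.80 and 2.18, a log2 difference of 0.28 (SE 0.11, exact permutation p = 0.0106, adjusted p = 0.021), and 9 of 9 old mice were above the young mean. With replicate number as a block the adjusted p of the second was 0.094 (exact sign-flip test). The ratio of Mfn2 to Mfn1 went from 1.47 to 1.70 (log2 difference 0.20, SE 0.11, exact permutation p = 0.076, adjusted p = 0.102) and passed only without replicate 2 of 28 months (0.25, adjusted exact permutation p = 0.020). The ratio of Mfn2 to Dnm1l, of outer membrane fusion to division, was 9.35 and 9.52 and did not pass (log2 difference 0.03, SE 0.07, exact permutation p = 0.711).

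**Figure D3:**
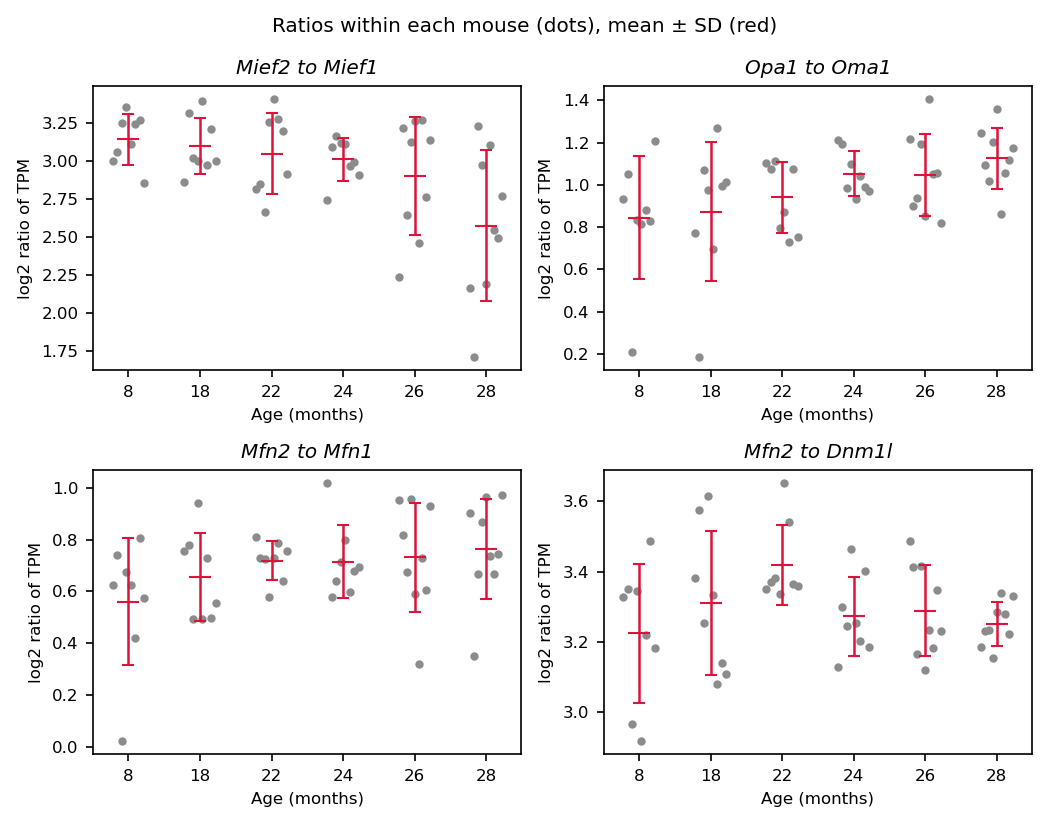
Log2 ratios of TPM of 4 gene pairs in each mouse (grey dots) against age in months, with the mean and SD of each age in red; axes do not start at 0. The Mief2 to Mief1 ratio has a log2 mean of 3.14 at 8 months and of 2.58 at 28 months, where the SD is 0.50 against 0.17.

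Within ages, members differed in how they varied together from mouse to mouse. Deviations of log2 TPM from the mean of each age were correlated over the 50 mice for the 36 pairs, with permutations within ages and adjustment over the 36. Of these, 29 had a positive Pearson r, 18 positive and 4 negative pairs had adjusted permutation p below 0.05, and the median r was 0.29. Pairs of other genes were not examined in this way, so whether these counts are particular to the members was not tested. Opa1 and Dnm1l were the closest pair (r = 0.87, Spearman rho 0.76, permutation p of both 1e-05, the smallest that 100000 permutations give, adjusted p = 7.2e-05), with r = 0.79 without the 2 farthest mice. Mfn2 and Opa1 followed (r = 0.78, rho 0.67, adjusted permutation p = 7.2e-05, r = 0.73 without 2 mice), and then Mfn1 and Opa1 (r = 0.76, rho 0.74, adjusted permutation p = 7.2e-05, r = 0.68 without 2 mice). The fusion genes and the division GTPase thus varied together over the 50 mice once the age means were removed, and single ages were not examined. Fis1 went the other way. All 4 negative pairs held it, with Opa1 (r = -0.52, rho -0.44), Mief1 (-0.48, -0.49), Dnm1l (-0.44, -0.33) and Mfn2 (-0.44, -0.38). Without the 2 farthest mice of each pair, r was weaker with Opa1 (-0.41), Dnm1l (-0.32) and Mfn2 (-0.36). With Mief1 it was then -0.51. Fis1 had a positive r with Mief2 (0.51, rho 0.48, adjusted permutation p = 0.0012, r = 0.48 without 2 mice). Replicate 2 of 18 months had the highest TPM of Fis1 among the 50 mice and the lowest of Opa1, Dnm1l and Mfn1. The part of this mouse alone in the correlations was not tested. All values of a mouse come from 1 library, so its composition and RNA quality are shared by both genes of a pair, and their part was not tested.

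**Figure D4:**
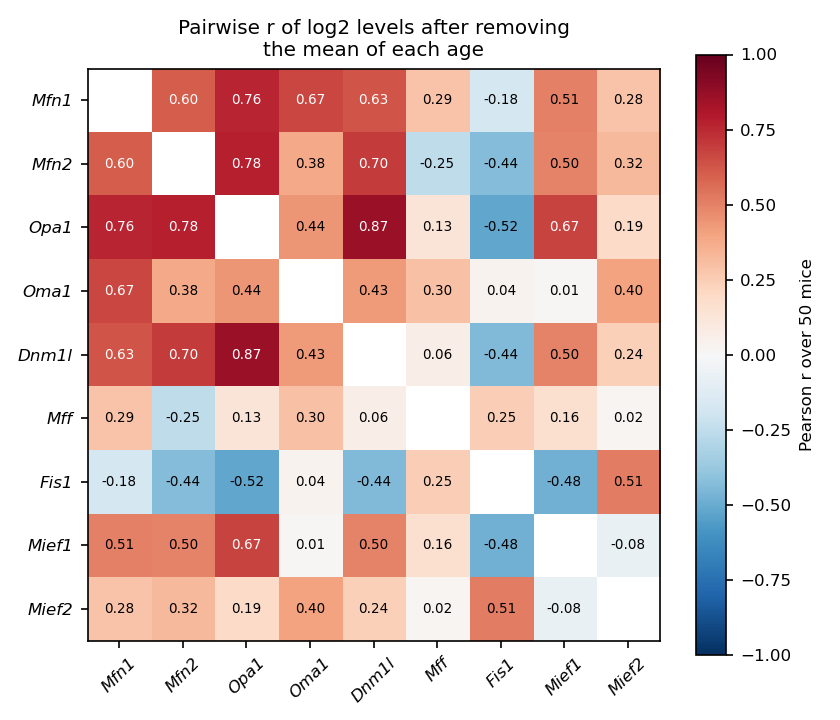
Pearson r over 50 mice between each pair of the 9 genes, from log2 TPM with the mean of each age removed (red positive, blue negative). Opa1 and Dnm1l have the highest value, 0.87, and the row of Fis1 holds the lowest, -0.52 with Opa1.

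Over all 50 mice and ages, the 2 genes most like each member in log2(TPM + 1) were given by Pearson r, as a description. Fis1 was most like Tmem134 (r = 0.93) and Guk1 (0.92), Opa1 most like Fam210a (0.92) and Pdpr (0.91), and Mfn1 most like Tmem65 (0.91) and Etfdh (0.90). Dnm1l had Opa1 itself as its nearest gene (0.86), followed by Ank2 (0.81). Mief1 was most like Smad5 (0.90) and Casp8ap2 (0.90), whereas Mief2 was most like Dok7 (0.82) and Trub2 (0.81). For Mff the nearest were Emc2 (0.82) and Ak6 (0.80), for Mfn2 Pacs2 (0.82) and 2610507B11Rik (0.82), and for Oma1 Mrpl45 (0.78) and Sod2 (0.78).

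Other genes around the fusion and fission machinery were examined between 28 and 8 months in 7 lists, each against 18.7% of all genes lower and 21.0% higher. Of 15 other fusion and fission factors, 13 were tested, of which 4 were lower and 3 higher (median log2 fold change 0.02). Gdap1, an outer membrane protein of fission known from a hereditary neuropathy, fell from 38.0 ± 10.2 to 9.78 ± 6.02 CPM (log2 fold change -1.96, SE 0.28, edgeR FDR 4.5e-07). Mtfp1, an inner membrane protein that promotes fission, fell from 53.7 ± 9.22 to 28.5 ± 13.2 CPM (log2 fold change -0.92, SE 0.17, edgeR FDR 1.7e-05). Both changed by more than any of the 9 members. Of the other proteases that process Opa1 and the prohibitins, 2 of 8 were lower and 0 higher (median -0.01), namely Afg3l1 (-0.31, edgeR FDR 3.7e-05) and the prohibitin Phb (-0.42, edgeR FDR 0.00019). The cristae-organising MICOS complex with its sorting partners had 5 of 11 lower and 0 higher (median -0.31), led by Minos1 (-0.74, edgeR FDR 5.9e-06) and Chchd3 (-0.39, edgeR FDR 6.7e-05).

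Of 4 genes of mitochondrial transport 1 was lower, the motor adaptor Trak1 (-0.50, edgeR FDR 6.3e-05), and 0 were higher (median -0.21), while Rhot2 stood at -0.20 (FDR 0.029). Of 9 mitophagy genes 1 was lower and 3 higher (median 0.14). Among them the mitophagy receptor Fundc1 fell (-0.45, edgeR FDR 7.6e-05), whereas Bnip3, another receptor, rose from 334 ± 37.8 to 596 ± 279.7 CPM (log2 fold change 0.84, SE 0.18, edgeR FDR 0.00012). Of 10 regulators of mitochondrial biogenesis 2 were lower and 2 higher (median 0.13). The orphan receptor Esrra, an activator of mitochondrial genes, fell from 117 ± 16.0 to 71.5 ± 29.0 CPM (log2 fold change -0.71, SE 0.16, edgeR FDR 0.00025), Nrf1 rose (0.39, edgeR FDR 0.00011), and the fatty acid receptor Ppara stood at 0.46 without passing (edgeR FDR 0.178). Of 14 genes for general mitochondrial content 6 were lower and 0 higher (median -0.19), including the electron carrier Cycs (-0.73, edgeR FDR 1.4e-05) and the oxidase subunit Cox4i1 (-0.47, edgeR FDR 0.00018). The median of the 9 members, -0.20, was close to the median of this list, and no test of one list against another was made.

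**Figure D5:**
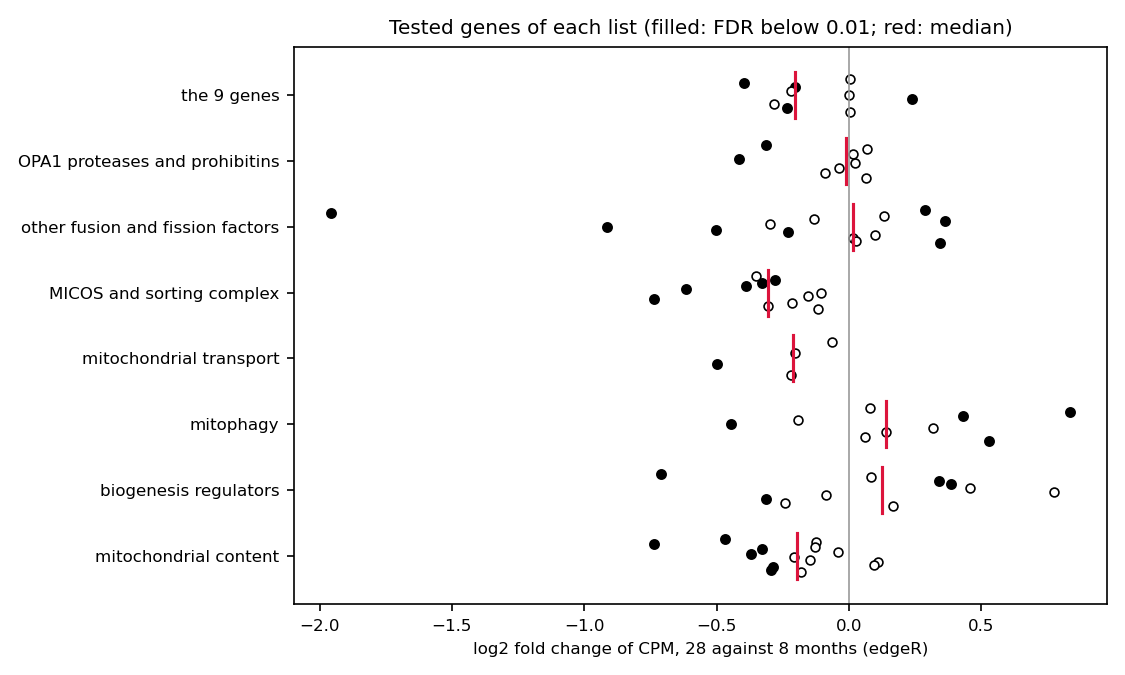
Log2 fold change of CPM between 28 and 8 months (horizontal axis) for each tested gene of the 9 members and of 7 lists (rows), filled where FDR was below 0.01, with the median of each row in red. Gdap1 lies farthest left at -1.96, and the MICOS row has the lowest median, -0.31.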

How the data were processed

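Libraries were stranded and read from both ends. According to the methods, the authors trimmed reads with Cutadapt 1.9.1 and assigned them with kallisto 0.43.1 to protein-coding Ensembl transcripts of GRCm38, and equal parts of a read were given to each transcript it matched. The deposited count of a gene is the authors' sum over its transcripts. The deposited TPM are the authors' counts per transcript length, scaled to the library and summed per gene. Levels in CPM were computed here from the counts with TMM factors. The test was the quasi-likelihood one of edgeR 4.0.16 (R 4.3.3) on counts in 1 fit over the 6 ages, after a filter that kept 12586 genes reaching 1 CPM in no fewer than 8 mice. Benjamini-Hochberg adjustment ran over these genes with a threshold of FDR 0.01. Ratios and correlations used permutation tests (scipy 1.17.1, threshold 0.05).

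The members and the lists were chosen with earlier results of these data known. All members were named, with the 2 genes of smallest FDR in each list, Esrra and Ppara, and the 2 genes most like each member; marker lists were given as counts, and those not mentioned in the report are given under other observations. On simulated data for 28 against 8 months (12586 genes), the test called 9% of 100 genes changed by 0.3 and 61% of 100 changed by 0.6 on the log2 scale, and 0 unchanged genes. Alternatives were upper-quartile factors, DESeq2 1.42.0, limma 3.58.1 on log2(TPM + 1) or log2(TPM + 0.1), no filter, the 2 ages alone, a block for replicate number, and leaving out single mice. Promoters came from RefSeq (GRCm38.p6), and 23845 of 23880 gene identifiers matched GENCODE vM21. The authors' own comparisons, masses of muscles and other species were not used here.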

Additional observations from a re-analysis of the deposited data

Results flagged for a closer look

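Of 62 groups of values (9 genes in CPM at each of 6 ages, and 4 log2 ratios of TPM at 8 and 28 months), 4 held a mouse far from the others by Dixon's criterion, and chance flags about 1 in 20 groups. Fis1 at 18 months was highest in replicate 2, at 131 CPM against 96.1 CPM in the next mouse. Mief1 at 8 months was lowest in replicate 3, at 24.2 CPM against 25.9 CPM in the next. The log2 ratio of Mfn2 to Mfn1 at 28 months was lowest in replicate 2, at 0.35 against 0.67. The log2 ratio of Opa1 to Oma1 at 8 months was lowest in replicate 3, at 0.21 against 0.81, and the difference between 28 and 8 months still passed with each mouse left out (exact permutation tests, adjusted p up to 0.045).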

How the results depend on the processing

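Between 28 and 8 months, 4 members passed in the fit reported, against 4988 of 12586 genes. Fis1 and Mief1 were the 2 that passed with limma on log2(TPM + 1) (4482 of 12452 genes) and on log2(TPM + 0.1) (4407 of 12452). The same 2 passed with no filter on low counts (4785 of 22116 genes) and in a fit on these ages alone (3396 of 12075). With a mouse left out the number of members ranged from 2 to 6. It was 2 without replicate 3 or 4 of 8 months or 1 or 9 of 28 months, and 6 without replicate 3 of 28 months. Over all genes it ranged from 4336 of 12567 (without replicate 2 of 28 months) to 5418 of 12581 (without replicate 3 of 28 months). Between 28 and 22 months, 2 members passed, against 3485 of 12586 genes. With upper-quartile factors (3440 of 12586 genes), no filter (2993 of 22116) or the replicate number as a block (3451 of 12586), 1 passed. In a fit on the 2 ages alone 0 passed (1859 of 12064 genes). The same held without replicate 2 of 28 months (2521 of 12567 genes), an alternative chosen after seeing the data. The ratio of Mfn2 to Mfn1 differed by between 0.13 and 0.25 (log2) with each mouse left out and passed only without replicate 2 of 28 months. The ratio of Opa1 to Oma1, with a difference of 0.27 under the block, did not pass there. Of 864 alternative values of single members, 827 kept their side of the threshold and none that was called changed sign, 4 passed only in the alternative and 33 only in the analysis reported, and of 685 pairs called in neither, 47 changed sign. The median over all genes between 28 and 8 months moved from 0.01 to -0.05 with upper-quartile factors and to 0.06 with limma on log2(TPM + 1). Of 121 pairs of same-numbered mice of different ages, 49 had r over 0.1 (median 0.06), against 239 of 920 pairs with other numbers (median -0.01). The first were somewhat more alike, but not every pair was over 0.1 and no label ties the numbers to a shared origin, so they were not taken to pair mice. On simulated data with few changed genes the test recovered 9% of changes of 0.3 on the log2 scale. That size is near that of the called members, but the share cannot be carried over to the data, where 39.6% of genes were called.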

Other observations

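Among marker lists not described above, 0 of 6 slow or IIa fibre markers and 0 of 4 endothelial markers were called between 28 and 8 months (edgeR, FDR below 0.01). Of Schwann cell markers 1 of 4 was lower, and of erythroid markers 1 of 3 was higher. Over all genes tested, 18.7% were lower and 21.0% higher. Of the lymphocyte list 1 gene was tested and was higher, Ptprc (CD45), which all leukocytes carry, macrophages included, so it does not mark lymphocytes; the T and B cell markers of that list did not pass the filter. Summed levels of slow or IIa fibre markers ran from 424 to 2192 TPM at 8 months and from 823 to 3613 TPM at 28 months.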
